A study of Mus musculus with 2 samples.

Results

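Dense clusters of distal sites are stretches of the genome in which open chromatin away from promoters recurs at short intervals. They were found in DNase-seq data of mouse spleen. Peaks of either library that overlapped by 1 bp or more were joined into regions. The 39714 regions that had peaks of both libraries and a midpoint over 1 kb from every protein-coding start site were kept, and neighbours with gaps of at most 12500 bp were chained. Chains of 5 or more regions were called dense clusters. There were 1223 of them, with 8780 regions, out of 21614 chains, 39714 distal shared regions and 60596 shared regions in all. The clusters were chosen by the position of their peaks and ranked by their signal, so their number, size and signal are a description, with no test.

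DNase I cuts open chromatin preferentially, so stretches of frequent cutting mark regulatory DNA. The tissue was whole spleen of male B6CASTF1/J mice aged 4 days, hybrids of C57BL/6J and CAST/EiJ, with no treatment named. The labels give 1 group of 2 biological replicates, and no other condition was compared. The sample descriptions number the animals differently while both libraries carry the same donor identifier, so it is not settled whether the animals differ, and the spread between libraries may be technical. Signal is the authors' value per peak, on a scale that is not stated and that is specific to each library. Replicate 1 had 80323 peaks and replicate 2 had 88723. Read depth is unknown, so no counting interval can be given.

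Distal open regions include enhancers, which act on promoters at a distance, and insulators bound by CTCF, the zinc finger protein that anchors chromatin loops. Neighbouring enhancers often serve the same gene, and dense runs of strong ones near genes of cell identity are known as super-enhancers or, in the globin loci, as locus control regions. The newborn mouse spleen still forms blood, mostly red cells, and is being settled by lymphocytes. The spleen label was checked against promoters with a shared region within 1 kb of a start site. Of the erythroid genes listed for this purpose 39 of 42 had such an open promoter, as did 21 of 26 B cell genes and 10 of 24 T cell genes, against 10 of 20 neuron genes, 7 of 18 skeletal muscle genes, 3 of 20 hepatocyte genes and 59.7% of all protein-coding genes. The T cell share was below that of all genes and of the neuron list. Macrophage (10 of 26), megakaryocyte and platelet (8 of 20), natural killer (5 of 15) and endothelial genes (8 of 19) were also below both. Spleen stroma genes (10 of 20) equalled the neuron list, and neutrophil genes (13 of 22) were just below all genes. Stem and progenitor genes (19 of 21) and dendritic cell and antigen presentation genes (11 of 16) were above both. In whole tissue, fewer cells of a type and less accessibility per cell cannot be told apart.

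The sequences below are the strongest regions of the 6 highest-ranked clusters and of 2 clusters at erythroid genes, Zfpm1 and Epb41, which were chosen after their values were seen. They give examples of repeated DNA, GC-rich DNA, a tRNA gene and regions with GATA words among the strongest regions, and do not stand for clusters at large: of all cluster regions 2.87% were repeated, 1.63% lay within 100 bp of a tRNA gene and 15.1% had a GATA word. All are RefSeq's GRCm38 (mm10) reference, plus strand, 5′ to 3′, and 1 allele of these hybrid mice may differ from it. Capitals mark the GATA words AGATAA or TGATAA on either strand and, in the Abt1 and Btn1a1 sequence, a consensus match to the B box, the inner promoter element of tRNA genes.
Mid1 cluster, chrX:169998241-169998420: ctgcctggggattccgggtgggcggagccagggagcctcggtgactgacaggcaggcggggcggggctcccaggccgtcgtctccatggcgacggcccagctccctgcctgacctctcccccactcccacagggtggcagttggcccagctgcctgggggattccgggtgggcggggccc
Ptma cluster, chr1:86525321-86525540: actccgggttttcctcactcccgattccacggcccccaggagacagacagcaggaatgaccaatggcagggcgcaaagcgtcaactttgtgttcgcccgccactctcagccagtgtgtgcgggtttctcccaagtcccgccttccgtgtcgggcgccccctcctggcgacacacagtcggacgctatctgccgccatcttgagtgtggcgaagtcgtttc
Abt1 and Btn1a1 cluster, chr13:23432981-23433160: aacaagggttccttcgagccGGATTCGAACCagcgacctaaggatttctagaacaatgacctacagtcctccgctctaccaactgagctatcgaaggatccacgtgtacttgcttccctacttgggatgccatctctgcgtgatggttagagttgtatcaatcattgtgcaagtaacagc
E2f2 and Id3 cluster, chr4:136178001-136178200: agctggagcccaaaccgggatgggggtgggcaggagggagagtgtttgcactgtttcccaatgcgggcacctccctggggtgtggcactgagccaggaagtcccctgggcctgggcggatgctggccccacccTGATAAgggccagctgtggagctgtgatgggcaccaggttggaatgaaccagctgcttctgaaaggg
Klf16 cluster, chr10:80569781-80569980: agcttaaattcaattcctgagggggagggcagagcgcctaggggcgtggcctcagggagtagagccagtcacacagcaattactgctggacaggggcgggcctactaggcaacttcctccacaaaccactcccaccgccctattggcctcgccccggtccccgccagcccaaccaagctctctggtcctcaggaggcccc
Sfi1 cluster, chr11:3123821-3124100: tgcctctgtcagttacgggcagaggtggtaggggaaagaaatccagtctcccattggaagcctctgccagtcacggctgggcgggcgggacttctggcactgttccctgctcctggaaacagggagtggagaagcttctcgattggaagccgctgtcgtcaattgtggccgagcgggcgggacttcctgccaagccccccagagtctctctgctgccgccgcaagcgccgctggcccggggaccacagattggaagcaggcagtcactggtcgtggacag
Zfpm1 cluster, chr8:122321741-122321960: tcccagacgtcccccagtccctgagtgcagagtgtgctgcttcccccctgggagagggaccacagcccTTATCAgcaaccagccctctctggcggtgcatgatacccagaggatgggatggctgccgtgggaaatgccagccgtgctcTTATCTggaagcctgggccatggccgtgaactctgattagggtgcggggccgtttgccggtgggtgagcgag
Epb41 cluster, chr4:132076821-132077000: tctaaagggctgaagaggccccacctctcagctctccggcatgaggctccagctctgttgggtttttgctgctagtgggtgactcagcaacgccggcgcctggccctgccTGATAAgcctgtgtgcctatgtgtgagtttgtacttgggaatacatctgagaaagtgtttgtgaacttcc

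The E2f2 sequence lies in an intron of that gene, 5707 bp from its start site, and holds 1 GATA word and 2 matches to the E-box word CAGCTG, to which basic helix-loop-helix factors bind. The Zfpm1 sequence is intronic and holds 2 GATA words. The Epb41 sequence lies outside the body of Epb41, 1619 bp from a start site of that gene, in an exon of another annotated gene. It holds 1 GATA word and 1 match to the NF-E2 word GCTGAGTCA, which contains the AP-1 word TGAGTCA. The Ptma, Klf16, Sfi1 and Mid1 sequences hold no GATA word. The SP word GGGCGGG occurs 2 times in the Mid1 sequence, 1 time in the Klf16 sequence and 3 times in the Sfi1 sequence. A match names letters, not a bound protein.

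The dense clusters held 22.1% of the distal shared regions and 30.4% of their summed signal in replicate 1 and 29.7% in replicate 2 (mean 30.04% ± 0.539, SD, n = 2). A cluster had a median of 6 regions, with a range of 5 to 45, and a median span of 19860 bp, with a range of 2540 to 99800 bp. Only 164 clusters had 10 or more regions and 20 had 20 or more. The summed signal, taken as the mean of both libraries, had a median of 10.2 and ranged up to 158. The strongest region of a cluster carried a median of 33.9% of the cluster's signal, with a range of 6.89% to 89.8%. Signal was unequally spread over clusters: the 123 highest-ranked (10%) held 29.7% of it. Chains just inside the limit, with 5 regions (459 chains), had a median sum of 6.89, a median span of 15960 bp and a median of 1.38 per region. Chains just outside it, with 4 regions (900 chains), had a median sum of 5.21, a median span of 12190 bp and a median of 1.30 per region.

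**Figure D1:**
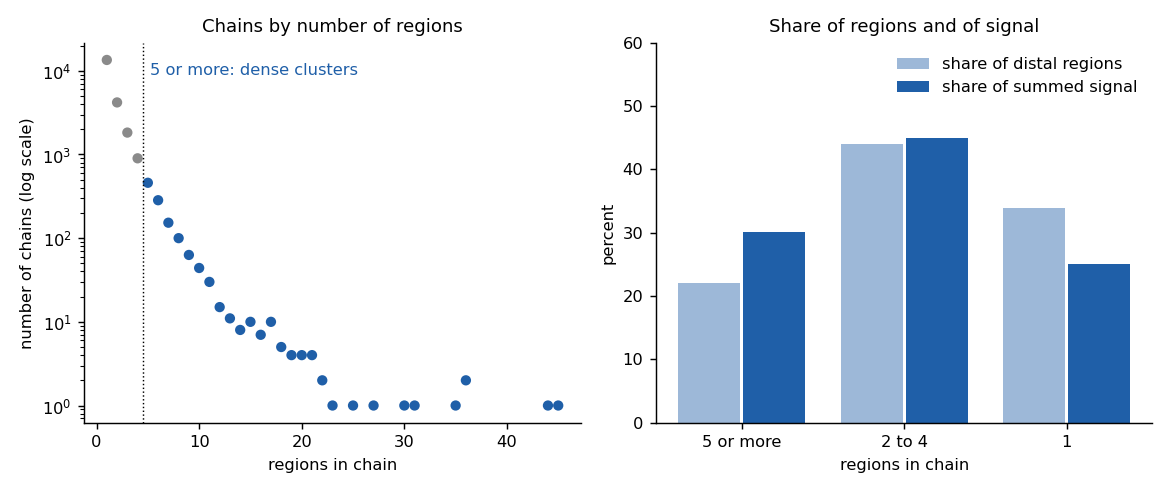
Left, number of chains (log axis) against the number of regions in the chain, with chains of 5 or more, the dense clusters, in blue. Right, percent of distal shared regions (light) and of their summed signal (dark) by chain size; dense clusters held 22.1% of regions and 30.04% of signal.

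The 20 clusters with the highest summed signal combined genes of general cell function with genes of blood cells. After the Mid1 cluster, described with the repeated DNA, the highest sum was at Ptma, which encodes prothymosin alpha, an acidic nuclear protein abundant in dividing cells. Its cluster (chr1:86471021-86538700) held 22 regions that summed to 119.7 in replicate 1 and 109 in replicate 2. The 2 strongest regions reached nearly the same height: 21.8 and 19.8 at 1295 bp from a Ptma start site, and 21.9 and 18.2 at 39105 bp. Of the 22 regions, 20 were intergenic, and 3 matched CTCF.

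The cluster of E2f2 and Id3 (chr4:136127823-136202780, rank 4) had 20 regions and sums of 89.4 in replicate 1 and 77.0 in replicate 2. E2f2 encodes a transcription factor of the cell cycle with a known role in maturing erythroblasts, and Id3 an inhibitor of basic helix-loop-helix factors. The strongest regions crowded inside E2f2: the region printed above had 19.2 in replicate 1 and 13.6 in replicate 2, and the next, 2587 bp from the start site, had 13.4 and 10.1. At Malat1, a long non-coding RNA kept in the nucleus, 11 regions (chr19:5786521-5819880, rank 7) summed to 66.9 and 64.2, of which the strongest had 24.8 and 21.6. No protein-coding gene overlapped that cluster. Because only protein-coding start sites were used to set promoters apart, promoters of non-coding genes count as distal here. In all, 16.1% of cluster regions lay within 1 kb of another annotated transcript start, against 13.3% of all distal shared regions. Such starts include those of non-coding genes and of further transcripts of protein-coding genes.

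Compact clusters also ranked high. At Mnt, whose product is a repressor that binds MAX in competition with MYC, 8 regions within 16193 bp summed to 66.6 in replicate 1 and 50.05 in replicate 2, an average of 7.29 per region. At Junb and Prdx2 (chr8:84944581-85007980, rank 9), 19 regions summed to 64.5 and 56.1. Junb encodes an AP-1 subunit and Prdx2 a peroxiredoxin abundant in red cells. The cluster of Klf16, Rexo1, Abhd17a and Atp8b3 (rank 5, 16 regions) summed to 73.9 and 62.1, and that of Midn, Cirbp and Atp5d (rank 8, 13 regions) to 65.6 and 60.7. Lower in the 20 stood a cluster at Cebpb, which encodes a factor of myeloid cells, with Ube2v1 and Tmem189 (rank 13, 58.2 and 49.7), one at Ube2o, an enzyme that clears proteins from maturing red cells, with Aanat and Rhbdf2 (rank 17, 53.1 and 48.3), and one at Setd1b, a histone methyltransferase (rank 20, 55.0 and 44.3).

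The other clusters in the 20 were at Elmsan1 (rank 14, 60.4 in replicate 1 and 42.4 in replicate 2), at Ssbp4, Lrrc25, Isyna1 and Gdf15 (rank 15, 53.0 and 49.3), at Gpr146, Cyp2w1, Cox19 and Adap1 (rank 16, 53.4 and 48.5) and at Igf2bp3, which encodes an mRNA-binding protein of fetal tissues (rank 18, 46.4 and 54.4). In the Igf2bp3 cluster a single region, 21574 bp from the start site, held 58.8% of the signal. Replicate 2 had the higher sum at Sfi1, Igf2bp3, Hist1h4h and the predicted genes of chromosome 9, and replicate 1 in the other clusters of the 20.

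**Figure D2:**
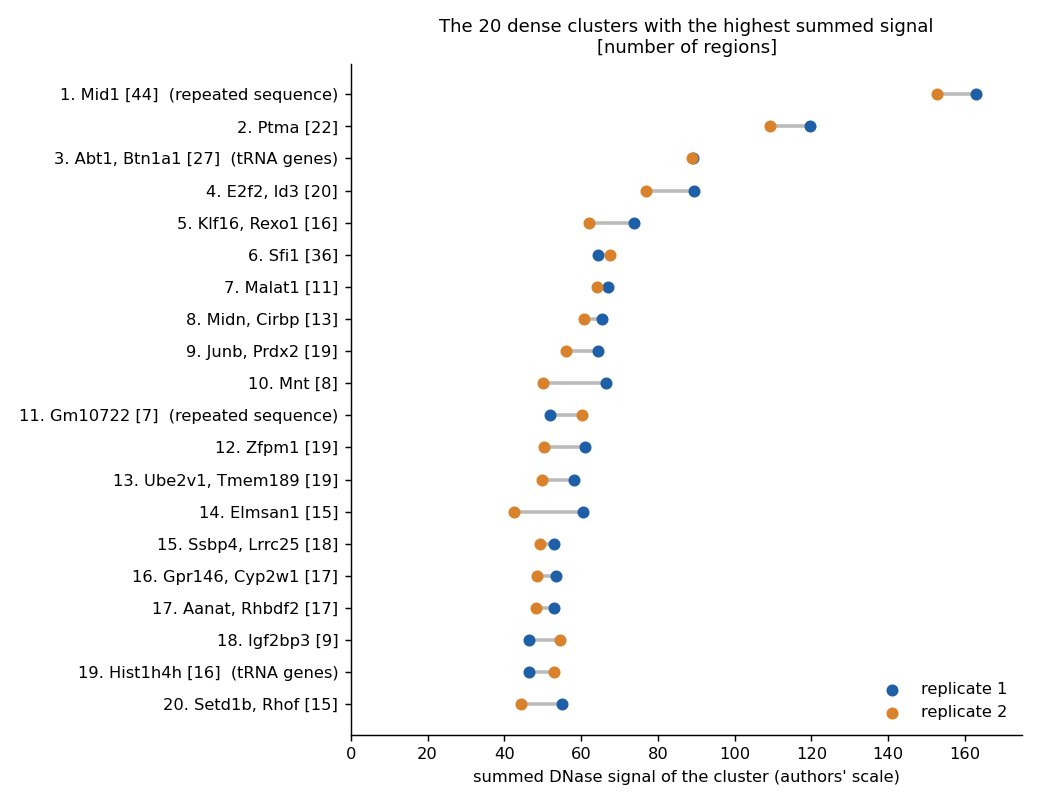
Summed signal (authors' scale) of the 20 highest-ranked dense clusters, 1 row per cluster with its number of regions in brackets and 1 point per library. The Mid1 and Ptma clusters stand above the rest, and clusters mainly of repeated sequence or with tRNA genes are marked.

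Erythroid genes were often at a dense cluster. A gene counted as at a cluster if its body overlapped one or a start site lay within 50 kb of one, which held for 13.9% of 21851 protein-coding genes. By this measure 23 of 42 erythroid genes were at a cluster (54.8%), and 15 of 42 overlapped one with their body (35.7%), against 5.7% of all protein-coding genes. With the stricter peak list 13 of the 42 were at a cluster, against 6.87% of all genes. The list was written with earlier results of these data known, so this count is a description. The 23 genes were at 24 clusters, since Nfe2, Klf1 and Tal1 were each at 2, while the pair Hba-a1 and Hba-a2 and the pair Hbb-bt and Hbb-bs each shared one. Unless stated otherwise, values by list take 1 cluster per gene, the highest-ranked of those over its body or, with none there, of those within 50 kb, which gives 21 for the erythroid list.

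Zfpm1 encodes FOG1, the cofactor that GATA1 needs in red cells and megakaryocytes. Its cluster (chr8:122259461-122333440, rank 12) had 19 regions, with sums of 61.1 in replicate 1 and 50.4 in replicate 2. All 19 were intronic, but not all in Zfpm1, whose body begins at 122282141. The predicted gene Gm20388 also overlapped the cluster. It differed in build from the E2f2 cluster: signal was spread over 73980 bp, its strongest region held 13.0% of the sum, and 6 of its 19 regions had a GATA word. Slc4a1, the anion exchanger band 3 of the red cell membrane, was at a cluster of 17 regions (rank 75, 35.7 and 28.4). Nfe2, a factor that activates globin genes, was at one of 11 regions (rank 90, 32.4 and 27.4), and its strongest region had 13.5 and 11.7.

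Ank1 and Epb41, which act in the red cell membrane skeleton, were each at a cluster. Ank1 encodes ankyrin 1, which ties band 3 to spectrin, and its cluster of 7 intronic regions (rank 164) summed to 26.5 in replicate 1 and 19.0 in replicate 2. Epb41 encodes protein 4.1, which joins spectrin to actin, and its cluster of 9 regions (rank 165) summed to 26.1 and 19.3, with a GATA word in 4 of the 9. Klf1, the erythroid Krüppel-like factor that drives adult globin, was at a cluster of 5 regions (rank 225, 20.96 and 17.4) in which no region had a GATA word. The other erythroid genes were at clusters ranked between 159 and 1129. They included the transcription factors Gfi1b, Tal1 and Foxo3, the adaptor Ldb1, the surface proteins Rhd, Ermap and Tspan33, carbonic anhydrase Car2, the ubiquitin ligase Trim58, the mitochondrial glycine carrier Slc25a38, the survival factor Bcl2l1, and Bnip3l, which acts in mitochondrial clearance.

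Both globin loci had a dense cluster, and in each it lay beside the genes and not over them. Hbb-bt and Hbb-bs had open promoters, while Hba-a1 and Hba-a2 had none, for which the cause was not tested. The cluster near Hba-a1 and Hba-a2 (chr11:32237141-32256420, rank 214) consisted of 6 regions, all in introns and overlapping Nprl3, a gene whose introns are known to hold enhancers of the alpha-globin genes. Its sums were 22.5 in replicate 1 and 17.3 in replicate 2, and 3 of the 6 regions had a GATA word. The cluster near Hbb-bt and Hbb-bs (chr7:103859201-103873360, rank 344) had 5 intergenic regions whose nearest gene was Hbb-y, an embryonic beta-like globin, on the side of the locus where the locus control region lies. Its sums were 17.3 and 13.3, the strongest region had 8.73 and 6.38, and 2 of the 5 had a GATA word. In summed signal both globin clusters ranked below those of Zfpm1, E2f2, Slc4a1 and Nfe2.

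GATA words were more frequent in the clusters of erythroid and megakaryocyte genes than in dense clusters at large. Counted in the central 150 bp, on both strands, a GATA word was in 48 of the 179 regions (26.8%) of the 21 erythroid clusters and in 16 of 47 regions (34.0%) of the 8 megakaryocyte and platelet clusters, against 15.1% of all cluster regions and 14.1% of all distal shared regions. At least 1 such region was in 20 of the 21 erythroid clusters and in all 8 megakaryocyte clusters, against 743 of 1223 dense clusters (60.8%). Over all 24 clusters of the erythroid genes it was 49 of 208 regions (23.6%), in 21 of the 24. The clusters of B cell genes had 13.3% (6 of 45 regions), those of macrophage genes had 4 of 40 and those of T cell genes 0 of 17. CTCF matches were in 1.68% of the erythroid cluster regions, or 2.88% over all 24 clusters, against 7.23% of all cluster regions. No test was made of these shares.

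Of the 20 megakaryocyte and platelet genes 8 were at a cluster (40.0%), against 13.9% of all protein-coding genes. With their body 5 overlapped one (25.0%), against 5.7% of all. Gp9, a subunit of the platelet receptor for von Willebrand factor, was at one of 6 regions (rank 232, 21.3 in replicate 1 and 16.4 in replicate 2). Nbeal2, needed for platelet alpha granules, was at one of 8 (rank 299, 17.6 and 14.8), and Vwf, von Willebrand factor itself, at one of 6 intronic regions (rank 357, 16.2 and 13.5). Gp9 and Nbeal2 had open promoters and Vwf did not. Of the 21 stem and progenitor genes 5 were at a cluster (23.8%): Zfp36l2, an RNA-binding protein that destabilises mRNA (rank 46, 40.1 and 36.3), Lyl1, a basic helix-loop-helix factor (rank 61, 35.5 and 33.9), Fli1, an ETS factor (rank 656, 10.1 and 8.89), Myb and Mllt3. The Zfp36l2 cluster was also one of the 5 with the most regions.

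Of the B cell genes 7 of 26 were at a cluster (26.9%), including Ikzf3, the lymphoid zinc finger factor Aiolos (rank 145, 28.4 in replicate 1 and 20.3 in replicate 2, in a cluster over Ormdl3), Bcl6, the repressor of germinal centre cells (rank 502, 11.9 and 11.7), and Spib, an ETS factor (rank 512, 11.2 and 12.2). Pax5, which fixes B cell identity, was at a cluster of 6 regions around its start (rank 636, 9.11 and 10.54). Of the T cell genes 3 of 24 were at one, near the 13.9% of all protein-coding genes. Among them were Lck, a kinase of the T cell receptor (rank 342, 17.6 and 13.1) and Cd247, the receptor's zeta chain (rank 1015, 5.72 and 5.46). Lck had an open promoter and Cd247 did not. The natural killer list, also near that share, had 2 of 15, Klrb1c, a surface receptor, and Nkg7, a protein of cytotoxic granules, both within 50 kb of a cluster and without an open promoter.

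Of the neutrophil genes 6 of 22 were at a cluster (27.3%), against 13.9% of all protein-coding genes. These 6 genes were at 4 clusters. Only Mmp9 overlapped one with its body (4.55% of the list), which is below the 5.7% of all protein-coding genes. Mpo, the myeloperoxidase of neutrophil granules, had no open promoter but lay within 50 kb of the cluster at rank 21 (14 regions over Tspoap1, 52.4 in replicate 1 and 45.4 in replicate 2). Elane and Prtn3, granule proteases, shared a cluster over Arid3a, Kiss1r and R3hdm4 (rank 95, 30.7 and 27.5), again with no open promoter of their own. Of the macrophage genes 7 of 26 were at a cluster (26.9%), among them Fcgr1, an Fc receptor (rank 166), Siglec1, a sialic acid receptor (rank 387), and Cx3cr1, a chemokine receptor (rank 439, 13.8 and 11.8). None of the macrophage genes named here had an open promoter. The Fcgr1 cluster lay over histone genes and the Siglec1 cluster over Hspa12b. Of the dendritic cell and antigen presentation genes 5 of 16 were (31.2%): the MHC class II genes H2-Ab1 (rank 141), H2-Aa and H2-Eb1 (both rank 721), the antiviral protein gene Bst2 (rank 191) and Irf8, a factor of dendritic cells (rank 396).

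Among lists of other kinds, 4 of 19 endothelial genes (Egfl7, Eng, Ramp2 and Pecam1), 3 of 20 stromal genes (Col1a1, Madcam1 and Tlx1) and 4 of 20 cell cycle genes (Aurkb, Birc5, Top2a and Rrm2) were at a cluster. The stromal share was near the 13.9% of all protein-coding genes, and the endothelial and cell cycle shares were above it. With their body 1 endothelial gene, 1 cell cycle gene and no stromal gene overlapped a cluster. These body shares were all below the 5.7% of all protein-coding genes. The clusters near Col1a1 (rank 44) and Aurkb (rank 53) lay over other genes: the Col1a1 one over Sgca, Ppp1r9b and Samd14, and the Aurkb one over Ctc1, where 7 of its 8 regions had a tRNA gene. No hepatocyte or neuronal gene of 20 each was at a cluster. Of 18 skeletal muscle genes 1 was, Cacna1s, in a cluster shared with Kif21b (rank 273).

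**Figure D3:**
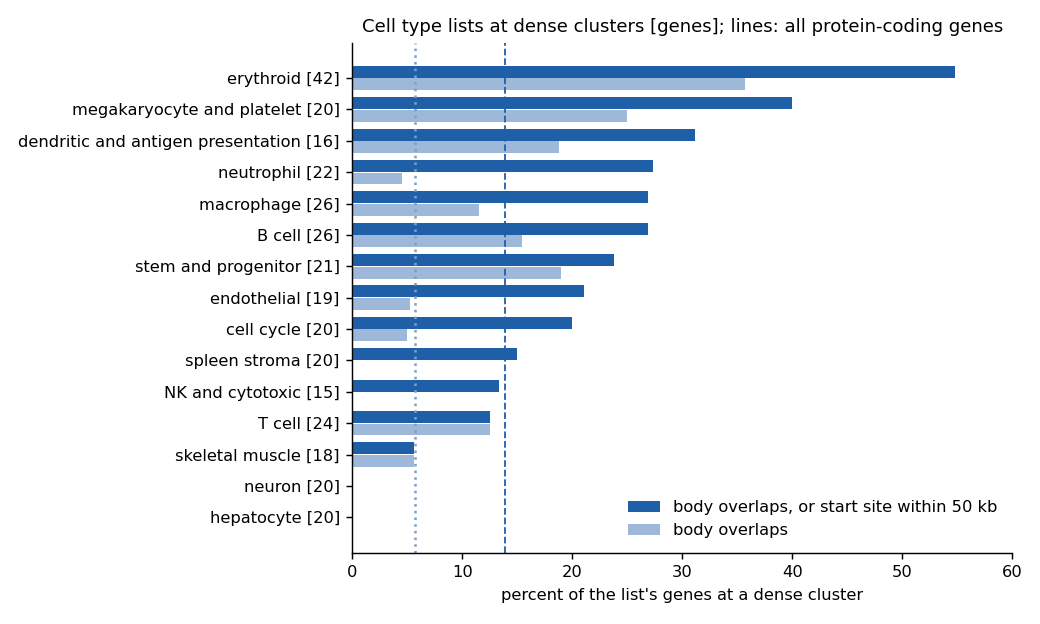
Percent of each gene list (number of genes in brackets) at a dense cluster, dark for a body overlap or a start site within 50 kb and light for a body overlap alone. Lines give the share of all protein-coding genes, 13.9% (dashed) and 5.7% (dotted); the erythroid list reaches 54.8% and the hepatocyte and neuron lists have none.

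Genes with a cluster had open promoters more often than genes without. Regions with a midpoint within 1 kb of a start site were left out of the clusters. An open promoter needed only a region that overlapped this 1 kb, so a cluster region just past the limit could also count as one. How often this happened was not counted. Of the 1245 protein-coding genes whose body overlapped a cluster, 86.3% had an open promoter, as did 1311 of the 1782 genes with only a start site within 50 kb. Of the 18824 genes not at a cluster 56.6% had one, against 59.7% of all. Among the clusters themselves, 319 overlapped no protein-coding gene, 339 lay within the body of 1 gene, 269 overlapped 2 or more, and 477 spanned a protein-coding start site. Only 128 lay over 50 kb and 42 over 100 kb from every start site. Cluster regions were nearer to start sites than other distal regions, with medians of 13500 bp and 20900 bp, and had 54.7% and 53.3% GC at the median. Introns held 44.8% of the cluster regions and 46.9% of the other distal regions.

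CTCF matches were rarer in dense clusters than elsewhere. The core of the CTCF consensus was in the central 150 bp of 7.23% of cluster regions and 12.7% of other distal regions, with 11.5% of all distal shared regions as background. The share was lower the more neighbours a region had: 4.78% in chains of 10 or more, 8.12% in chains of 5 to 9, 11.1% in chains of 2 to 4 and 14.9% of regions standing alone. With all distal shared regions split into 4 equal classes by signal, it was higher the stronger the class and lower in clusters in each. In the weakest class 11 of 1138 cluster regions (0.967%) and 605 of 8791 other distal regions (6.88%) had a match, and in the strongest 412 of 3300 and 1408 of 6629 (21.2%). Within clusters, the outermost region on either side had a match in 10.1% of 2446 cases and inner regions in 6.14% of 6334, while their median signals were 1.11 and 1.12. The CTCF share was lower in clusters than in other distal regions under every alternative tried, at 4.39% to 8.97% in clusters and 9.86% to 16.3% elsewhere.

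GATA words did not follow chain size in this way. They were in 15.1% of cluster regions and 13.8% of other distal regions, at 12.7% in chains of 10 or more, 16.0% in chains of 5 to 9, 14.7% in chains of 2 to 4 and 12.6% of regions alone. With the stricter peak list the shares were 14.9% in clusters and 14.8% elsewhere. The order differed by signal: in the strongest class 18.2% of cluster regions and 13.8% of other distal regions had a GATA word, and in the weakest class 114 of 1138 cluster regions and 1124 of 8791 other distal regions (12.8%) did. The SP word GGGCGGG was in 9.19% of cluster regions and 6.51% of other distal regions, against 7.10% of all distal regions. The KLF word CCACACCC was in 4.15% and 3.36% (3.53% of all), the AP-1 word TGAGTCA in 4.68% and 3.78% (3.98% of all), and the PU.1 word GAGGAAGT in 3.08% and 3.70% (3.56% of all). Without regions of repeated words or tRNA genes, GATA words were in 15.5% of 8388 cluster regions and 14.0% of 30184 other distal regions. These shares were read from regions that share libraries and neighbours, so no test was made.

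Footprints, short stretches protected from the enzyme, overlapped CTCF matches more often than GATA words. Any overlap counted, the CTCF word is longer than the GATA words, and no other words were counted as background. The shares therefore do not measure how often either factor was bound. A footprint of both libraries overlapped 623 of 636 CTCF matches in clusters and 3772 of 3967 elsewhere (95.1%). For GATA words it was 16.6% in clusters (252 of 1519) and 13.1% elsewhere (641 of 4877). At least 1 footprint in each library was found in 87.1% of cluster regions and 89.1% of other distal regions.

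**Figure D4:**
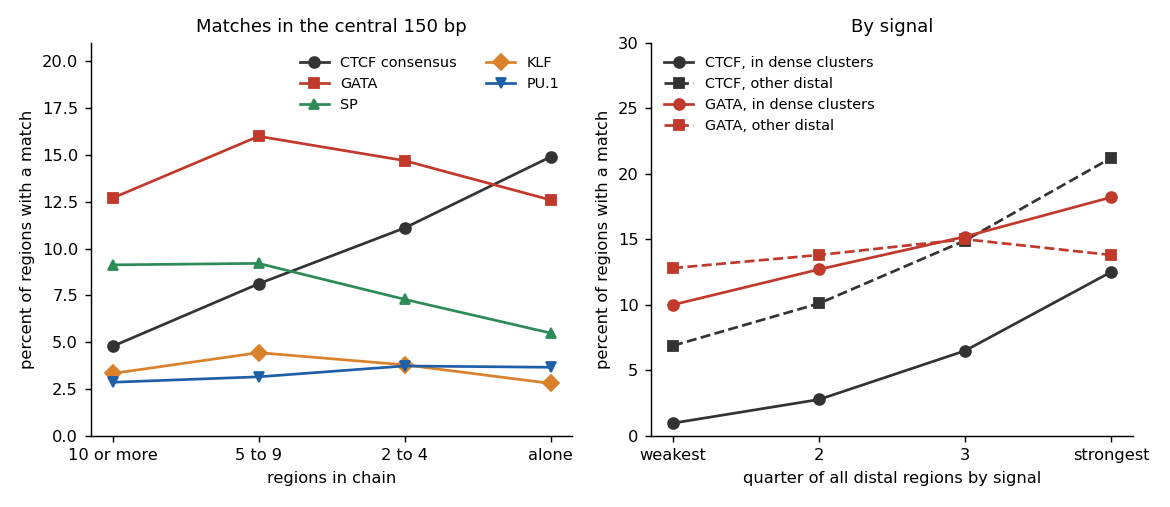
Percent of distal shared regions with a match in the central 150 bp, left by the number of regions in the chain and right in 4 equal classes by signal, with dense clusters as solid lines and other distal regions as dashed ones. CTCF matches go from 4.78% in chains of 10 or more to 14.9% of regions alone, while GATA words stay between 12.6% and 16.0%.

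Open distal regions at genes of transfer RNA were gathered in a small number of clusters. RNA polymerase III transcribes these genes from promoter boxes inside the gene. Most tRNA genes were not at such a region: of the 403 in RefSeq, 35.7% had a cluster region within 100 bp. Because the rule set aside protein-coding promoters only, 203 distal shared regions lay within 100 bp of a RefSeq tRNA gene, and 143 of them (70.4%) were in dense clusters, against 22.1% of all distal shared regions. They fell in 31 clusters, of which 21 had 3 or more such regions and 6 were among the 60 highest-ranked. The B box was in 98 of the 143 (68.5%), against 0.139% of other cluster regions and 0.398% of all distal shared regions. Median signal was 3.26 in the tRNA regions of clusters and 1.10 in other cluster regions. The set was chosen after its values were seen.

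The largest of these lay on chromosome 13, in the histone gene region. The cluster at Abt1 and Btn1a1 (chr13:23397044-23467200, rank 3) had 19 tRNA regions among 27, and its sums were 89.1 in replicate 1 and 88.8 in replicate 2. The one at Hist1h4h (chr13:23492148-23532620, rank 19) had 12 among 16 and summed to 46.4 and 52.9. On chromosome 11 the cluster at Ctc1 packed 7 tRNA regions among 8 into 5940 bp (rank 53, 34.0 and 39.7). The strongest region held 11.7% of the sum at Abt1 and Btn1a1, 18.4% at Hist1h4h and 16.3% at Ctc1. Other tRNA clusters had more in 1 region, up to 51.8% at Shf among those with 3 or more tRNA regions, and large clusters without tRNA regions had as little, 8.58% at Sfi1 and 13.0% at Zfpm1.

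Repeated DNA headed the ranking. In 21 clusters at least 50% of the regions consisted mostly of 31-base words that occur more than once in the reference. The cluster with the highest sum of all (chrX:169971689-170022360) was one of them, at Mid1, a ubiquitin ligase gene that spans the boundary of the pseudoautosomal region in laboratory mice: 42 of its 44 regions were repeated, and it summed to 163 in replicate 1 and 153 in replicate 2. Rank 11 was a cluster of 7 repeated regions at the start of the chromosome 9 sequence (chr9:3002041-3022560), where 4 predicted genes, Gm10722, Gm11168, Gm10721 and Gm10720, were the nearest of those overlapping it. It summed to 52.0 and 60.3, and its strongest region alone had 39.1 and 45.5. The Sfi1 cluster (chr11:3123241-3183020, rank 6, 36 regions) had 4 repeated regions, and the Igf2bp3 cluster (rank 18, 9 regions) had 1. Another 9 of the 21 clusters, with 80 regions, lay between 19698821 and 20826235 on chromosome 8. How reads of repeated DNA were placed is not given in the sources used here, and their part in these sums was not tested. Without repeated regions the same rule gave 1189 clusters, and 17 of their highest 20 overlapped the 20 described above.

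**Figure D5:**
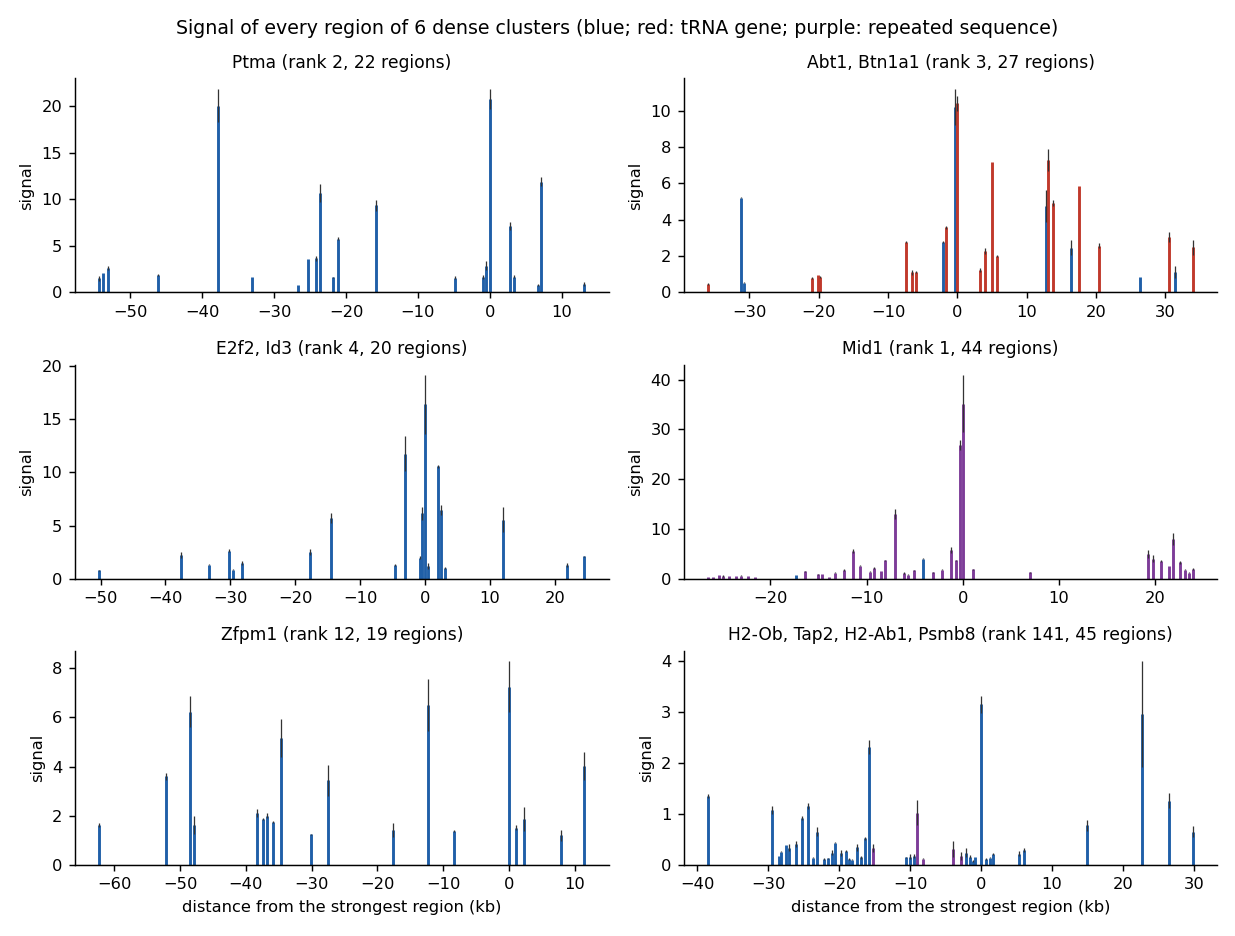
Mean signal of every region of 6 dense clusters against its distance in kb from the cluster's strongest region, with thin black lines for the range of both libraries. Red regions have a tRNA gene and purple ones are of repeated words; signal is spread widely at Zfpm1, packed within E2f2, divided among many tRNA regions at Abt1 and Btn1a1, and low at most of the 45 regions of the H2-Ob cluster.

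Of the 5 clusters with the most regions, 3 consisted of many weak regions at short gaps. The largest count, 45, was at H2-Ob, Tap2, H2-Ab1 and Psmb8 (chr17:34196561-34265160), genes that present antigens on MHC class II or supply peptides to class I. Its sums were only 23.7 in replicate 1 and 25.6 in replicate 2 (rank 141), its median region signal was 0.261, and its median gap was 360 bp. At B4galt5, which encodes a galactosyltransferase, 36 regions (rank 510) summed to 12.01 and 11.4, with a median gap of 220 bp, a median width of 345 bp and a median signal of 0.233. At Thada and Zfp36l2, 35 regions (rank 46) had a median gap of 370 bp and a median signal of 0.421. Over all dense clusters the median gap was 1916 bp, and the median region was 200 bp wide with a signal of 1.12. Of 7557 gaps, 38.7% were under 1 kb. Mid1 and Sfi1, with 44 and 36 regions, had higher median signals than 1.12, at 1.61 and 1.65. The Mid1 regions were also close and broad, with a median gap of 320 bp and a median width of 312.5 bp. At Sfi1 these were 900 bp and 180 bp.

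Both libraries ranked the clusters in nearly the same order. Over 1223 clusters the log2 sums of both libraries had a Pearson correlation of 0.981, a description over clusters built from the same merged regions. Of the 20 highest-ranked clusters 17 were among the highest 20 by replicate 1 alone and 18 by replicate 2 alone. The log2 ratio of replicate 1 to replicate 2, centred on the median of all distal shared regions (0.11), had an SD of 0.20 over clusters, and 1215 (99.3%) were within 0.5 of 0. Among clusters above the median sum, those most to the side of replicate 1 were at Stom, a red cell membrane protein (13.9 and 8.47, log2 ratio 0.60), at Gmpr, a purine enzyme (15.5 and 9.78, 0.55), and near Agfg1 (17.1 and 11.4, 0.47). Those most to the side of replicate 2 were near Tmem121 (24.2 and 30.8, -0.45) and in the natural killer receptor region of chromosome 6, at Gm44511 (11.5 and 14.5, -0.44) and BC035044 (25.6 and 31.9, -0.43).

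By list, 19 of the 21 erythroid clusters had a centred log2 ratio above 0, with a median of 0.19 and a range of -0.07 to 0.37, against 62.6% of all dense clusters and a median of 0.07. Over all 24 clusters of the erythroid genes 21 were above 0. Other lists leaned the same way: the 3 spleen stroma clusters had a median of 0.19, the 8 megakaryocyte and platelet clusters 0.15 and the 7 macrophage clusters 0.10. The 4 clusters of dendritic cell and antigen presentation genes had a median of -0.19, and the 7 B cell clusters -0.08. With 2 libraries, a difference between samples and one between preparations cannot be told apart, and no test was made.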

How the data were processed

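DNase-seq of 2 libraries of spleen (1 group, replicates 1 and 2) was used. Per the listing deposited with the files, the authors called peaks and footprints on each library alone, on mm10. Peaks carry the deposited signal (column 7), whose scale is not stated. Footprints carry the authors' FDR (q-value), 0.01 in every line. No aligner or caller is named in the labels or headers. The deposited lists of FDR per position were not used.

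Peaks of the longer list of each library were merged (1 bp overlap). A region's signal in a library is its highest peak, which mattered for 1866 shared regions with over 1 peak of a library. Start sites (41438) of 21851 protein-coding genes came from the GENCODE M21 basic annotation, tRNA genes (403) from RefSeq. Chromosome lengths matched GRCm38. A cluster's sum is the mean of both libraries. Motifs (17) were matched as fixed words in the central 150 bp, on both strands. All 329 members of 15 gene lists were found.

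The clusters, lists and rules were chosen with earlier results of these data known. Named are the 20 highest-ranked clusters with up to 4 genes, the 5 with the most regions, the 3 longest, the 3 farthest from start sites, the 3 largest library ratios either way, and up to 3 members per list; some of these are not reported here. Other list members, the tRNA, repeat, immunoglobulin and CTCF values and the B box were chosen after seeing values. All results are descriptions over 2 libraries; no tests were made. The chaining and motif code was tested on simulated data. Software was Python 3.11.15 with numba 0.67.0, numpy 2.4.6, pandas 2.3.3 and matplotlib 3.10.9.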

Additional observations from a re-analysis of the deposited data

How the results depend on the processing

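The number of dense clusters (1223) was 1990 to 2523 with either library alone, 505 with the stricter peak list, 521 with gaps of at most 5 kb and 2008 with gaps of up to 25 kb. The share of distal regions in clusters (22.1%) was 29.5% to 37.6% with either library alone, 14.5% with the stricter list, 9.16% at 5 kb and 42.6% at 25 kb. Their share of signal (30.04%) was 38.3% to 41.3% with either library alone, 19.3% with the stricter list, 26.6% with reciprocal overlap, 12.6% at 5 kb, 54.0% at 25 kb, 25.5% with regions 2.5 kb from start sites, and 24.5% with start sites of all genes. GATA words in cluster regions (15.1%) were at 12.4% to 14.7% with either library alone, and in other distal regions (13.8%) at 11.99% to 12.99%; with the stricter list the share in other distal regions was 14.8%. Of the highest 20 clusters at 5 kb, 10 overlapped one of the main 20, as did 10 at 25 kb, 12 at 2.5 kb and 11 with all start sites. Where a main cluster was split, each piece counted. When the main clusters were ranked by mean signal per region or by number of regions, 5 of the 20 stayed among the highest 20. The stricter list left 492 of the 1223 clusters overlapped by one of its own, all of the first 20 among them. Erythroid genes at a cluster were 13 with the stricter list and 28 of 42 at 25 kb, against 6.87% and 27.8% of all genes. Leaving out repeated words, taking every cluster of a list's genes, and the erythroid and CTCF values under each alternative, were added after seeing the data. The causes were not tested. No paired analysis was possible because there is 1 group. Depth is unknown, so weak regions of 1 library may lie under the limit of the other.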

Other observations

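Clusters near immunoglobulin genes, chosen after their values were seen, lay outside every protein-coding list. A cluster of 11 regions (chr12:113216041-113228520, rank 109) began 26310 bp from Igha, on the side where the regulatory region at the end of the heavy chain locus is known to lie. Another of 8 regions (chr12:113321201-113339880, rank 1218) overlapped Ighg1. Near Igkc, the constant gene of the kappa light chain, a cluster of 5 regions (rank 919) overlapped the gene and one of 8 regions (rank 252) lay 63075 bp away.

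The longest cluster, 99800 bp at Best1 and Fth1, the heavy chain of ferritin, had 18 regions with a median gap of 4700 bp and sums of 35.0 in replicate 1 and 30.4 in replicate 2 (rank 73). The next longest was at Gpr146 (84662 bp). The clusters farthest from any protein-coding start site were 463444 bp from Olfr161, where all 6 regions were of repeated words, and inside 2 long genes, Wwox (439019 bp, 6 intronic regions, rank 1033) and Rad51b (313244 bp, 5 intronic regions, rank 428).

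Chromosomes differed in the share of distal regions that lay in clusters. It was 29.2% on chromosome 11 (126 clusters) and 28.5% on chromosome 17, against 12.01% on chromosome 16 and 14.1% on chromosome X. On chromosome Y it was 38.7%, of 62 regions.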
